A study of Mus musculus with 7 samples.

Results

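The genes described are 10 members of the Hedgehog pathway, taken by gene symbol: the ligand genes Shh and Ihh, the receptor gene Ptch1, the signal transducer gene Smo, the co-receptor genes Gas1, Boc and Cdon, and the transcription factor genes Gli1, Gli2 and Gli3. They are 10 of 17096 genes measured by at least 1 probe set that the platform annotation assigns to a single gene. A probe set is a group of short probes on the array that report a transcript together. The 10 genes have 16 such probe sets, and the one with the highest mean over all arrays stands for each gene.

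The study profiled sorted mouse mammary cells on 7 Affymetrix arrays. The embryonic group (3 arrays, of 2000, 2000 and 813 cells) held cells high in CD49f and Lgr5 reporter signal from Lgr5-IRES-GFP female embryos at embryonic day 14, and each array was a pool of 1 litter's female embryos. The adult luminal group (2 arrays) held YFP+ cells of K8CREERT2/RosaYFP mice, and the adult basal group (2 arrays) held YFP+ cells of K5CREERT2/RosaYFP mice, both 8 weeks after tamoxifen. In these mice a tamoxifen-activated Cre recombinase, driven by keratin 8 or keratin 5 sequences, switches on YFP permanently in the cells that carry it and in their descendants. The adult arrays are marked as analysed again, the age and sex of these mice are not given in the sources used here, and nothing in the labels says whether replicate arrays came from separate mice. The p-values therefore measure only the spread between these arrays, and precision is limited by having 2 or 3 arrays per group.

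Hedgehog ligands are secreted proteins that bind Patched receptors with the help of the co-receptors Gas1, Boc and Cdon. Ligand binding releases Smoothened, encoded by Smo, from Patched inhibition, and Gli proteins then change the transcription of target genes, among them Gli1 and Ptch1 themselves. Gli2 acts mainly as an activator and Gli3 mainly as a repressor. In the mammary gland the pathway is known chiefly from the embryonic bud, where Gli3 repressor activity is needed for normal bud formation, and from exchange between epithelium and stroma.

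All 11 measured basal markers were lower in luminal than in basal cells (median log2 difference -2.77), and 8 of 11 luminal markers were higher (median 1.40), by the call rule given below. Krt5, the keratin gene that marks basal cells, had a log2 intensity of 9.13 and 9.56 on the luminal arrays, against 12.03 and 12.15 on the basal arrays. Krt8, the keratin gene behind the luminal label, was bright in both groups, with means of 11.04 in luminal and 10.64 in basal cells, and was not called (0.40 ± 0.12, limma adjusted p = 0.0750). Krt18 (0.68) and the claudin gene Cldn4 (0.88) fell short of 2-fold. Median log2 intensity over all probe sets ran from 5.05 to 5.08 on the 7 arrays. Genes restricted to other organs set a background level of 6.18 (log2), which equals an intensity of 72.7. Some genes of that list were bright: 6 of its 78 genes had an adult mean above it, among them Fgb, a fibrinogen gene, at 8.28 in luminal and 7.11 in basal cells. A lower level of 5.66, from the 90th percentile of the same probe sets in place of the 95th, was added after seeing the data. Below, background means 6.18 unless 5.66 is named.

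The embryonic columns need a limit stated before any level is read from them. Over all 17096 genes the embryonic mean lay between the 2 adult group means for 89.3% and within 0.1 of the adult midpoint for 86.1%, and embryonic replicates 1 and 2 held the same value for 36.1%. For the Hedgehog genes these numbers were 10, 8 and 3 of 10. Embryonic levels thus describe the deposited table, and the comparison developed here is between the adult groups, fitted on their 4 arrays alone.

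Both genes that passed the test encode co-receptors, and both were lower in luminal than in basal cells. Gas1, a membrane-anchored protein that binds Hedgehog ligands, was 4.47-fold lower, and Boc, an immunoglobulin superfamily receptor that also binds them, was 2.69-fold lower. The other co-receptor gene, Cdon, the closest relative of Boc, did not pass, nor did any ligand, receptor, transducer or Gli gene. The 3 Gli genes had differences of -0.42 to -0.58 on the log2 scale and did not pass. A gene was called when its Benjamini-Hochberg adjusted p over all genes in limma was under 0.05 and its difference at least 2-fold, and 2 of 10 Hedgehog genes met this, against 6.81% of all genes (3.24% of all genes were called as lower in luminal cells). With the embryonic arrays in the fit the same 2 were called, against 5.49% of all genes. In the fit on 4 arrays 13.0% of the 7822 genes above background in an adult group were called, and 2 of the 6 such Hedgehog genes. This filter uses the groups of the contrast, so a gene can enter through its higher group alone, as Gli2 and Gli3 did. The shares after it are therefore only a description.

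**Figure D1:**
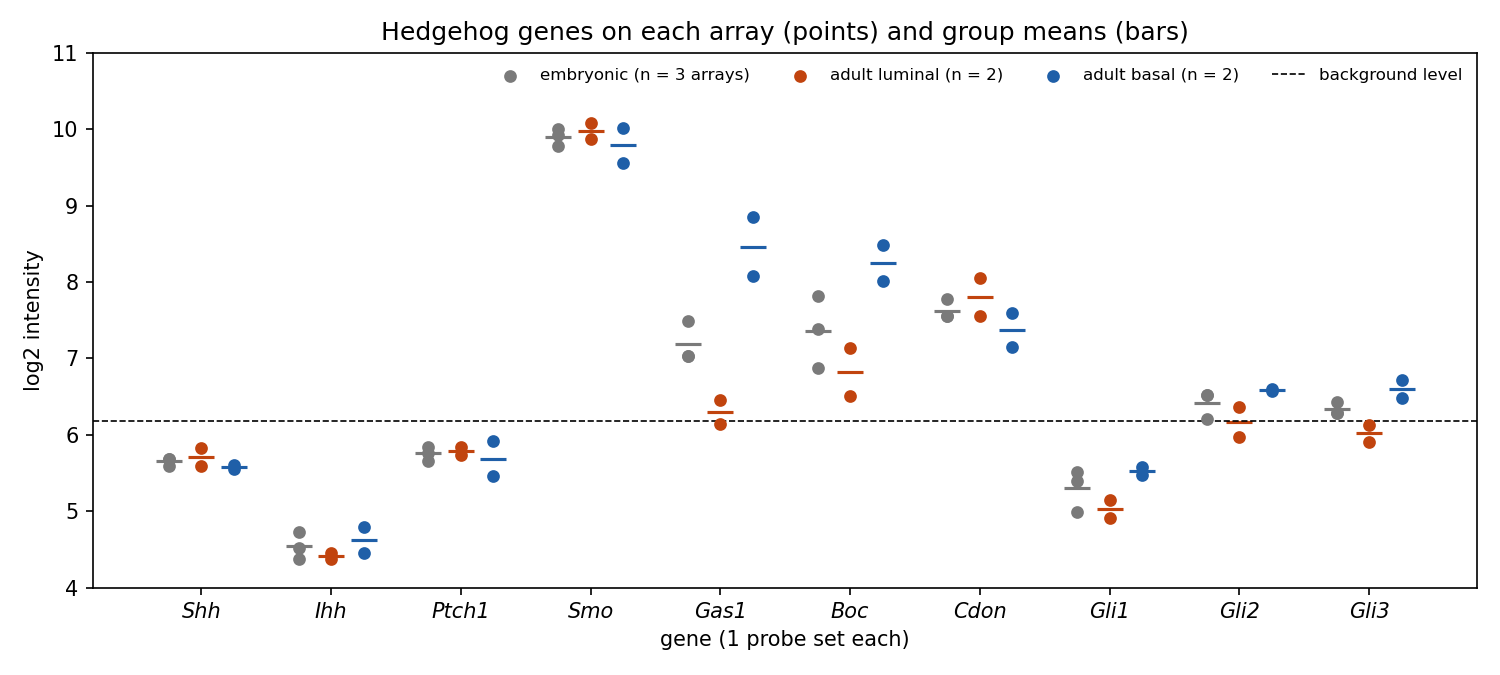
The vertical axis gives log2 intensity and the horizontal axis the 10 genes, with a point for each array and a short bar for each group mean, embryonic, luminal and basal from left to right. The luminal and basal points of Gas1 and Boc lie apart, those of Smo and Cdon share a range, and Shh, Ihh, Ptch1 and Gli1 lie below the dashed background level on all arrays.

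The Gas1 promoter is shown because Gas1 had the largest difference of the 10 genes, and that of Smo beside it because Smo was above background on every array and did not pass. Both stretches are the 250 bases before the annotated start, 5′ to 3′, from RefSeq on build GRCm38.p6. The Gas1 stretch is chr13:60177536-60177785 on the minus strand and the Smo stretch is chr6:29735247-29735496 on the plus strand. Capitals mark the letters CCAAT, a common promoter element.
Gas1: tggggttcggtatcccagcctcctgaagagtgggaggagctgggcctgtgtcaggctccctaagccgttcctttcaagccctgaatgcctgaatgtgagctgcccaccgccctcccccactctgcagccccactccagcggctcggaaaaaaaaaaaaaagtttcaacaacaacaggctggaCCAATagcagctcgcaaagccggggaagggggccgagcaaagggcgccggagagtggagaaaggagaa
Smo: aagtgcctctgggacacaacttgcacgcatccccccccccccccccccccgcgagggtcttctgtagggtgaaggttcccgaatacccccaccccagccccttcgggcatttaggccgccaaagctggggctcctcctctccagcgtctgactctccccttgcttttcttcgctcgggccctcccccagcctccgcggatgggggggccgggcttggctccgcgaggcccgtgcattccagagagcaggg

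The promoter table held 7 of the 10 genes: Ihh, Ptch1, Smo, Gas1, Cdon, Gli2 and Gli3. The letters CCAAT, or ATTGG on the other strand, were in 1 of these 7, Gas1, starting 68 bases before its start, and in 33.8% of the 32851 promoters of the table. The GLI consensus letters GACCACCCA, or TGGGTGGTC on the other strand, were in 0 of the 7 and in 0.225% of all promoters, and in 0 of the 7 and 5.79% of all promoters with 1 mismatch allowed. These counts say only which letters stand in these windows. The windows of Ptch1, Cdon and Gli2 lie inside the annotated gene, at a start other than its outermost one. GC content was 58.8% for Gas1 and 68.4% for Smo, against a median of 52.4% over the table.

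The ligand genes lay below the background level in every group, though the luminal mean of Shh, 5.70, was above the lower level of 5.66. Shh had log2 intensities of 5.59 and 5.82 on the luminal arrays, against 5.60 and 5.55 on the basal arrays, and the groups overlapped. Its difference, luminal minus basal, was 0.13 ± 0.14 (SE, n = 2 and 2 arrays, limma adjusted p = 0.601). Ihh had 4.45 and 4.38 on the luminal arrays, against 4.80 and 4.45 on the basal arrays, with a difference of -0.21 ± 0.16 (limma adjusted p = 0.433). The luminal values of Ihh lay under the basal ones by a margin smaller than the distance between the basal arrays. At such brightness a small difference does not show that expression was alike, since the probes may report little but background. A further probe set lists Shh beside another gene and was not used.

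Ptch1, the receptor gene that is also a target of the pathway, was below background as well, and at 5.66 it was above in both adult groups. It had 5.84 and 5.73 on the luminal arrays, against 5.46 and 5.92 on the basal arrays, so the luminal values lay inside the basal range. The difference was 0.09 ± 0.18 (limma adjusted p = 0.791), and it was -0.13 without basal replicate 1. A second Ptch1 probe set, dimmer still, gave 0.10 ± 0.12 (limma adjusted p = 0.654). Values of second probe sets, here and below, come from a separate limma fit and adjustment over all 28895 single-gene probe sets.

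Smo, which carries the signal across the membrane, was bright in both adult groups. It had 9.88 and 10.09 on the luminal arrays, against 9.57 and 10.02 on the basal arrays, and the groups overlapped. Its difference was 0.19 ± 0.19 (limma adjusted p = 0.567), with a 95% interval of -0.27 to 0.66 that leaves out a 2-fold change either way, and it was -0.03 without basal replicate 1. The other Smo probe set lay below background and gave 0.00 ± 0.17.

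Gas1 separated the adult groups most among the 10 genes. It had log2 intensities of 6.15 and 6.46 on the luminal arrays, against 8.08 and 8.85 on the basal arrays. The first luminal array lay just under the background level of 6.18 but above 5.66, both basal arrays were well above it, and the groups did not overlap. The difference was -2.16 ± 0.27 (SE, n = 2 and 2, limma adjusted p = 0.00839), with a 95% interval of -2.83 to -1.49. Gas1 has 1 probe set annotated to it alone, so no second probe set was set beside this value. Without luminal replicate 1 the difference was -2.00 and the call was lost (limma adjusted p = 0.0627).

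Boc had 6.51 and 7.14 on the luminal arrays, against 8.02 and 8.49 on the basal arrays. All 4 values were above background, and the highest luminal value was below the lowest basal one. The difference was -1.43 ± 0.26 (limma adjusted p = 0.0203), with a 95% interval of -2.07 to -0.79. The call was lost without luminal replicate 1 (-1.12, limma adjusted p = 0.0978) and with 16 added before the logarithm (-1.31, limma adjusted p = 0.0512). A second Boc probe set, below background on all adult arrays at 4.20 to 4.26, gave -0.02 ± 0.12, and the mean of both probe sets fell short of 2-fold at -0.73.

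Cdon had 8.06 and 7.56 on the luminal arrays, against 7.14 and 7.59 on the basal arrays. The groups overlapped by a narrow margin, and the first luminal array stood above the other 3. The difference was 0.44 ± 0.23 (limma adjusted p = 0.264), with a 95% interval of -0.13 to 1.01. The second Cdon probe set, also above background, gave 0.22 ± 0.20 (limma adjusted p = 0.547). The intervals of Cdon and Boc did not overlap, and the difference between these genes was not tested.

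Gli1, the Gli factor that is itself a target of the pathway, lay below background on all arrays. It had 5.15 and 4.91 on the luminal arrays, against 5.47 and 5.58 on the basal arrays, with a difference of -0.50 ± 0.14 (limma adjusted p = 0.0664). Gli2 had 5.97 and 6.36 on the luminal arrays, against 6.60 and 6.58 on the basal arrays, with a difference of -0.42 ± 0.16 (limma adjusted p = 0.146). Gli3 had 5.91 and 6.13 on the luminal arrays, against 6.72 and 6.49 on the basal arrays, with a difference of -0.58 ± 0.15 (limma adjusted p = 0.0508). The limma adjusted p of Gli3 was 0.0325 with the mean of its probe sets and 0.0362 on all 7 arrays. With a replicate block it was 0.0821, and under every alternative the difference of Gli3 stayed short of 2-fold. In each of the 3 genes both luminal values were below both basal values, and none of the differences reached 2-fold. Arrays that did not overlap and were lower in luminal cells were found for 25.3% of all genes. Gli2 and Gli3 crossed the background level between the groups, with means of 6.17 and 6.02 in luminal cells, against 6.59 and 6.60 in basal cells, and at 5.66 all of these means were above it.

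Gli2 and Gli3 each have a second probe set. For Gli3 the second probe set, with means near background, gave -0.43 ± 0.16 (limma adjusted p = 0.148), close to the first. For Gli2 it lay below background and gave -0.04 ± 0.13 (limma adjusted p = 0.905).

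**Figure D2:**
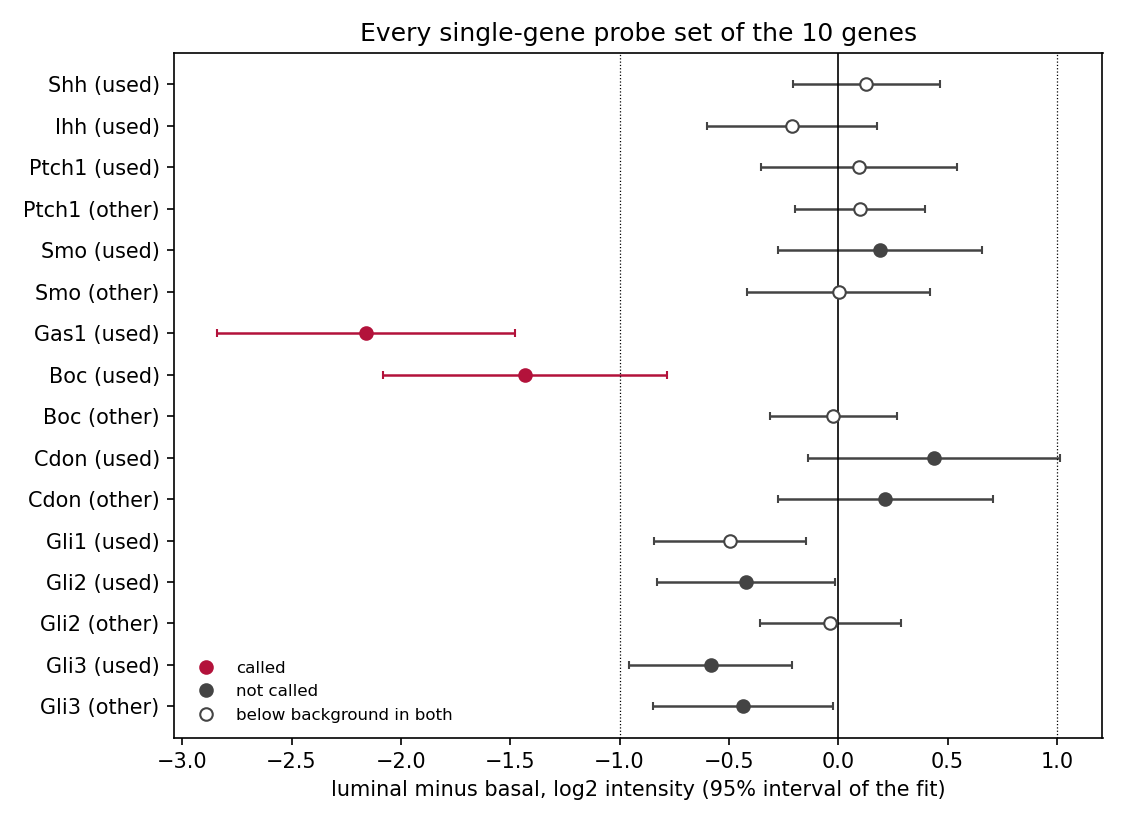
The horizontal axis gives the log2 difference, luminal minus basal, of all 16 single-gene probe sets, with 95% intervals of a fit over all such probe sets, and dotted lines at 2-fold. The Gas1 probe set at -2.16 and the brighter Boc probe set at -1.43 are called, the dimmer Boc probe set sits at -0.02, and open circles mark probe sets below background in both groups.

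Over the 10 genes the median difference was -0.32, against 0.02 over all 17096 genes. Lower in luminal cells were 6 of 10, against 7879 of 17096. At an unadjusted p under 0.05 there were 5 of 10, against 31.6% of all genes. The adult arrays did not overlap for 6 of the 10, a share near the 59.2% of all genes. Of the 8 genes not called, 7 had a 95% interval inside 2-fold in both directions, and Cdon reached just past it. Of these 7, Shh, Ihh, Ptch1 and Gli1 lay below background in both adult groups, and Gli2 and Gli3 in luminal cells. For them a narrow interval does not show that expression was alike. By their group means 6 of the 10 exceeded background in at least 1 adult group (Smo, Gas1, Boc, Cdon, Gli2 and Gli3). This became 8, with Shh and Ptch1, at the lower level of 5.66.

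Most markers of stromal and vascular cells were lower in luminal cells too. They were 13 of 15 fibroblast, 12 of 12 endothelial and 4 of 5 pericyte markers, against 7879 of 17096 genes. At an unadjusted limma p under 0.05 were 9 fibroblast, 10 endothelial and 5 pericyte markers (Notch3, higher, among them), against 31.6% of all genes. Most of these markers did not pass the test, and the list means also differed between replicates of a lineage. The mean log2 intensity of 15 fibroblast markers was 6.79 and 7.41 on the luminal arrays, against 7.94 and 8.22 on the basal arrays, and 4 of 15 were called, all lower in luminal cells: Postn (-2.39), Col6a1 (-1.68), Col5a1 (-1.76) and Mfap5 (-1.06). By their group means 12 of the 15 were above background in an adult group. Mfap5 was not among them, at 4.17 in luminal and 5.23 in basal cells. Over all genes 3.24% were called as lower in luminal cells. Dcn was bright with a difference of 0.05, at 10.43 and 9.67 on the luminal arrays, against 9.79 and 10.21 on the basal arrays, and Twist2 had a difference of 0.02. The collagen genes Col1a1 (8.58 and 10.41 on the luminal arrays, against 10.81 and 10.93 on the basal arrays) and Col3a1 (8.51 and 10.43, against 10.56 and 11.08) were bright, differed mostly on luminal replicate 1 and did not pass. Dpt (-1.47), Fn1 (-1.08) and Thy1 (-1.02) were more than 2-fold lower and did not pass. Pdgfrb (-0.80) had a limma adjusted p = 0.0425 but fell short of 2-fold. Pdgfra and Col1a2 were below background on all adult arrays. The mean of 12 endothelial markers was 5.11 and 5.75 on the luminal arrays, against 6.13 and 6.76 on the basal arrays. By their group means 8 of these 12 were above background in an adult group. Among them, Pecam1 (-1.63) and Cdh5 (-1.58) did not pass, and Egfl7 (-0.82, limma adjusted p = 0.0242) fell short of 2-fold. Of the 12 markers 1 was called, Esam (-1.30), which lay below background at 4.38 in luminal and 5.68 in basal cells. Only its basal mean was above 5.66. The mean of 5 pericyte markers was 5.58 and 5.95 on the luminal arrays, against 6.06 and 6.68 on the basal arrays, with Mcam called (-1.43), while Notch3 had 0.69 and did not pass. Leukocyte markers averaged 4.74 and 5.46 on the luminal arrays, against 5.36 and 5.55 on the basal arrays, and in limma 0 of 12 were called, with 1 at an unadjusted p under 0.05. By their group means 4 of the 12 were above background in an adult group, among them Cd74, at 6.14 and 7.25 on the luminal arrays, against 7.26 and 7.71 on the basal arrays, and Lyz2, at 3.92 and 6.23, against 6.32 and 7.05. Ptprc was below background on all adult arrays. Of 8 neural crest markers 2 were called, Erbb3 higher (1.85) and Ngfr lower (-1.13) in luminal cells, against 6.81% of all genes. By their group means 5 of the 8 were below background in both adult groups.

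Gas1 and Boc followed the same order over the 4 arrays as the fibroblast, endothelial and pericyte means. The share of all genes with that order is not given here. Both genes were lowest on luminal replicate 1 and highest on basal replicate 2, as was the leukocyte mean. The basal keratin and contractile list had the order of Gas1 and Boc as well, with means of 6.81 and 7.26 on the luminal arrays, against 9.65 and 9.94 on the basal arrays. The part of these other cells in the Gas1 and Boc differences was not tested. In sorted bulk samples, fewer cells of a type and less RNA per cell cannot be told apart.

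**Figure D3:**
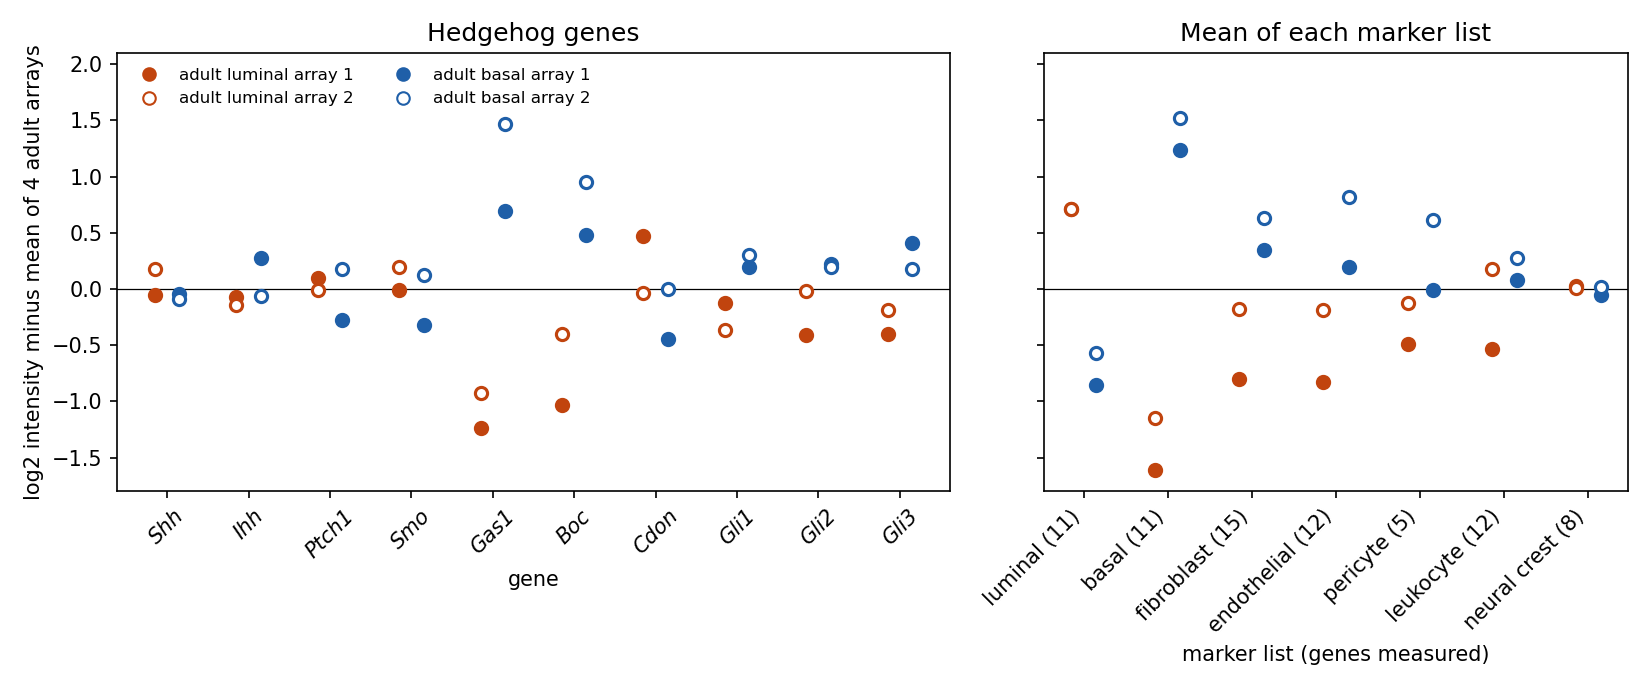
The vertical axis gives log2 intensity on each adult array minus the mean of the 4 adult arrays, for the 10 genes (left) and for the mean of each marker list (right), with luminal arrays left of basal arrays and filled and open points for replicates 1 and 2. Gas1 and Boc are lowest on luminal replicate 1 and highest on basal replicate 2, as are the fibroblast, endothelial, pericyte, leukocyte and basal lists.

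The genes whose adult pattern was most like that of each called co-receptor gene were found among 7821 others above background in an adult group. Likeness was the root mean square difference of log2 values over the 4 adult arrays, each gene centred on its own mean. For Gas1 they were Cpxm2 (0.0688), the amine oxidase gene Aoc3 (0.0891) and the homeobox gene Irx4 (0.0909). Their luminal minus basal differences were -2.21, -2.22 and -2.23. For Boc they were the VEGF receptor gene Flt1 (0.0258), the transporter gene Slc10a6 (0.0489) and Rgl1 (0.0670), with differences of -1.39, -1.35 and -1.54. With 4 arrays this likeness is a description, and all of these genes except Rgl1 had luminal means below background, that of Flt1 lying above 5.66.

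The rest of the pathway was read from lists of ligand release and binding genes, transduction genes and reported target genes. Of 45 distinct genes listed, 38 had a single-gene probe set, and 5 of 38 were called, 1 higher and 4 lower in luminal cells, against 6.81% of all genes. The median difference over the 38 was -0.09, against 0.02 over all genes. Of the 38 genes, 20 were above background in an adult group, the 5 called among them. Of all genes above background in an adult group 13.0% were called. Sfrp1 and Gpr161 passed this filter through their basal means alone, so these shares too are only a description.

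No ligand release or binding gene was called in limma (0 of 9, with 3 at an unadjusted p under 0.05), and all 9 lay below background in both adult groups, with Scube1 and, in basal cells, Disp1 above the lower level of 5.66. This list holds Dhh, a further Hedgehog ligand gene, with 4.55 and 4.39 on the luminal arrays, against 4.90 and 4.72 on the basal arrays. Its difference was -0.34 ± 0.14 (limma adjusted p = 0.155). Hhip, a decoy receptor and pathway target, had 4.62 and 4.62 on the luminal arrays, against 5.04 and 4.96 on the basal arrays (-0.37 ± 0.12, limma adjusted p = 0.0894). Disp1, which releases lipid-modified ligand from producing cells, had 5.17 in luminal cells, against 6.05 in basal cells. Its difference of -0.88 ± 0.12 had a limma adjusted p = 0.0102 but fell short of 2-fold.

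Of 17 transduction genes, 1 was called. Gpr161, a ciliary receptor that restrains the pathway, had 5.73 and 6.49 on the luminal arrays, against 7.09 and 7.34 on the basal arrays (-1.11 ± 0.26, limma adjusted p = 0.0418). The groups did not overlap, and the first luminal array was below 6.18 but above 5.66. The call was lost without luminal replicate 1 (-0.73), without basal replicate 2 (-0.99), with 16 added before the logarithm (-0.95) and with the mean of its probe sets (-0.72). Sufu, the inhibitor that holds Gli proteins, had a difference of -0.55 ± 0.26, Evc, a partner of Smoothened at the cilium, -0.84 ± 0.22, and Prkaca, a catalytic subunit of protein kinase A, 0.34 ± 0.14, and none of these passed (limma adjusted p = 0.224, 0.0572 and 0.168). Tulp3, a ciliary trafficking gene, had -0.56 ± 0.12 with a limma adjusted p = 0.0309 but fell short of 2-fold.

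Of 13 reported target genes 4 were called, in both directions. Sfrp1, a secreted WNT inhibitor, was lower in luminal cells, with 5.85 and 6.06 on the luminal arrays, against 8.77 and 9.24 on the basal arrays (-3.05 ± 0.19, limma adjusted p = 0.00247). The luminal values lie below 6.18 and above 5.66, so near background that the size may not be exact. Ccnd2, the cyclin D2 gene, was lower (-1.95 ± 0.30, limma adjusted p = 0.0131), as was Nr2f2, an orphan nuclear receptor gene (-1.10 ± 0.22, limma adjusted p = 0.0275). Without luminal replicate 1 the calls of Ccnd2 (-1.54) and Nr2f2 (-0.97) were lost. That of Nr2f2 was also lost without luminal replicate 2 (-1.24), without basal replicate 2 (-0.81), with 16 added (-0.98), with the mean of its probe sets (-0.80) and with the embryonic arrays in the fit (limma adjusted p = 0.256). Ccnd1, which encodes cyclin D1, was the 1 gene called higher (3.57% of all genes were), with 10.46 and 10.64 on the luminal arrays, against 9.40 and 9.39 on the basal arrays (1.16 ± 0.13, limma adjusted p = 0.00619). Mycn (-0.38 ± 0.15) did not pass, and Bcl2 (-0.64 ± 0.13) had a limma adjusted p = 0.0292 but fell short of 2-fold. So did the forkhead gene Foxf1 (-0.73 ± 0.15, limma adjusted p = 0.0295), which lay below background in both groups. The cyclin, WNT inhibitor and nuclear receptor genes answer to many inputs besides Hedgehog. The pathway's own feedback targets Gli1, Ptch1 and Hhip were below background in both adult groups, and of these Ptch1 was above 5.66.

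**Figure D4:**
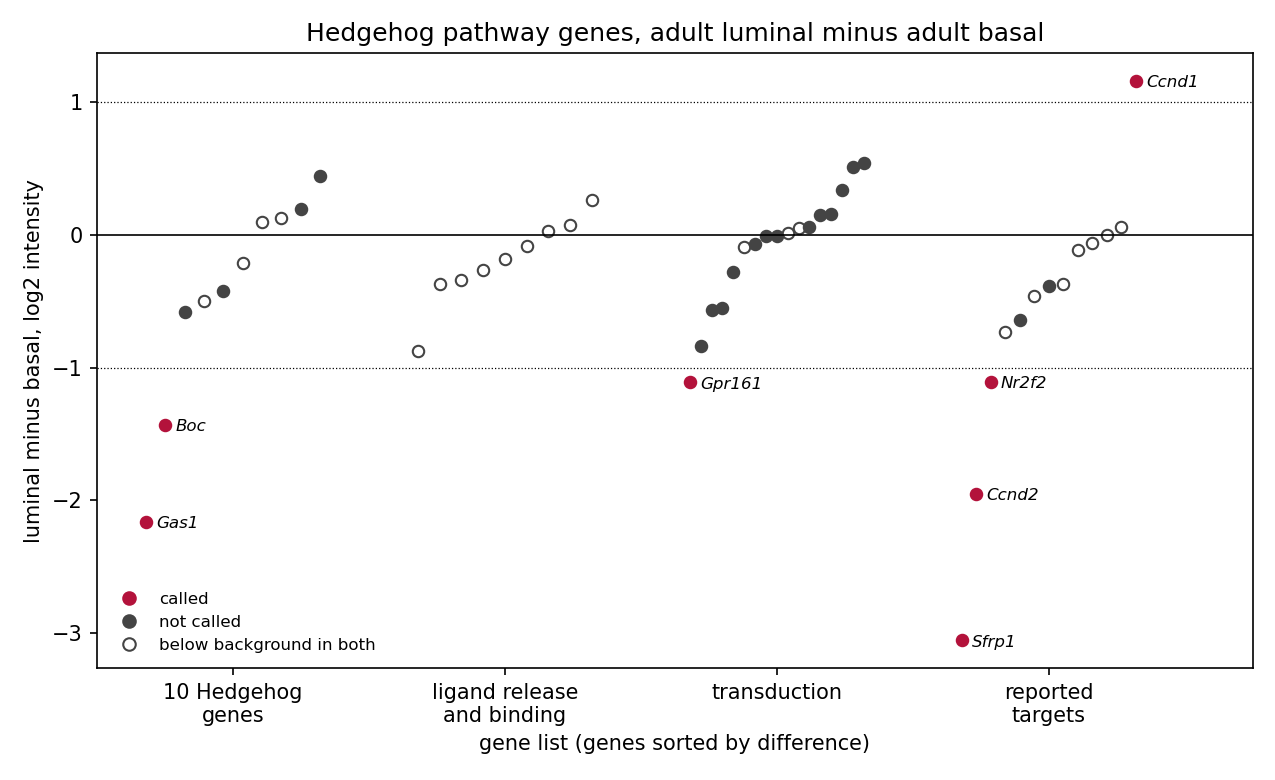
The vertical axis gives the log2 difference, luminal minus basal, for the 10 Hedgehog genes and the 3 pathway lists, sorted within each list, with dotted lines at 2-fold and open circles for genes below background in both groups. Called genes are named: Gas1, Boc, Gpr161, Sfrp1, Ccnd2 and Nr2f2 lie below -1 and Ccnd1 lies above 1.

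In the embryonic columns the 10 genes sat between the adult groups. Gas1 had 7.49, 7.04 and 7.04 on the embryonic arrays (mean 7.19 ± 0.26, SD, n = 3), above both luminal and below both basal arrays, with replicates 2 and 3 at the same value. Boc had 7.82, 7.39 and 6.88 (mean 7.37 ± 0.47), so its array of 813 cells lay within the luminal range. Smo averaged 9.90 ± 0.11 and Cdon 7.63 ± 0.13, each within 0.1 of the adult midpoint, and their order among the groups was not beyond the spread between arrays. Gli2 averaged 6.41 ± 0.18 and Gli3 6.33 ± 0.09. Gli1 (5.30 ± 0.28), Shh (5.65 ± 0.05), Ihh (4.54 ± 0.17) and Ptch1 (5.76 ± 0.09) were below background, with Ptch1 above 5.66.

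In limma over all 7 arrays, 0 of the 10 genes were called for embryonic minus luminal and 0 for embryonic minus basal, with 2 genes at an unadjusted p under 0.05 in each. Over all genes the shares called were 0.0234% and 0.0702%. Those shares do not apply to the unadjusted count, for which no share of all genes is given here. Gas1 had differences of 0.88 ± 0.26 from luminal and -1.28 ± 0.26 from basal cells (limma adjusted p = 0.274 and 0.222). Given how near the adult midpoint the embryonic columns lie, these values do not show how Hedgehog gene expression in embryonic cells compares with that in adult cells.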

How the data were processed

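Per the labels' protocols, RNA was purified from the sorted cells, and cDNA was amplified (WTA2 chemistry) and labelled for the arrays. The authors deposited a linear intensity for every probe set and array. The submitters' processing notes list RMA and affy. Not given in the sources used here are settings and which arrays were summarised in the same run. The adult samples carry the protocol text of the embryonic ones.

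Of 45141 rows, 4 held no value and 104 were control probe sets, and these were removed. Log2 of the intensity was taken. The annotation gave 1 gene for 28895 probe sets, several for 551 and none for 15587, and 0 symbols were updated. The highest-mean probe set stood for each of 17096 genes. Limma 3.58.1 in R 4.3.3 fitted luminal and basal means to the 4 adult arrays with eBayes (2 residual degrees of freedom, prior 3.73), and 3 group means to all 7 arrays for the embryonic contrasts. The embryonic arrays were kept out of the adult fit because their tied values would enter the pooled spread. Background was the 95th percentile of mean level over 101 probe sets for 78 organ-restricted genes not typical of mammary cells. The fit was tested on simulated data. It recovered 69% of 100 genes changed by 1.5 on the log2 scale and 97% of 100 changed by 3. Of 168 genes called there, 2 were false. A change near the size of that of Boc can therefore be missed.

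The members, lists and tests were chosen with earlier results of these data known. The rule for named genes took all members, up to 6 called genes per pathway list and its first 3 uncalled genes above background, 3 genes most like each called member, and up to 4 called markers per list. Dhh, Hhip, Disp1, Tulp3, Foxf1, Fgb, Krt8, Krt18, Cldn4, Dcn, Twist2, Col1a1, Col3a1, Pdgfra, Col1a2, Dpt, Fn1, Thy1, Pdgfrb, Pecam1, Cdh5, Egfl7, Notch3, Cd74, Lyz2 and Ptprc were chosen after their values were seen. Not all basal and luminal markers so chosen are printed. Alternatives covered the arrays in the fit, a replicate block, probe set choice, dim genes, quantile normalization, an offset of 16, the variance prior, the minimum fold and each replicate left out. Figures were drawn with matplotlib 3.10.9.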

Additional observations from a re-analysis of the deposited data

How the results depend on the processing

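Under 122 combinations of a Hedgehog gene and an alternative, 115 kept direction and call. Direction could not change with all 7 arrays, a replicate block, the other variance prior or no minimum fold. Nor could it with dim genes left out, since all of these keep the same difference. The 5 lost calls were Gas1 without luminal replicate 1 and Boc in 4 settings, all given above, and the 2 changed signs, were of genes not called, Ptch1 (-0.13 without basal replicate 1, up to 0.32 with another replicate left out) and Smo (-0.033 and up to 0.42 likewise). The number of Hedgehog genes called, 2, became 1 with the mean of all probe sets and 1 with the offset of 16, and ranged from 0 to 2 with a replicate left out, at 0 without luminal replicate 1. In the fit on all 7 arrays both calls stayed, Boc with a limma adjusted p = 0.0489. The count over all genes, 1165, was 939 in that fit, 710 with the offset, 2879 with no minimum fold and 519 to 1443 with a replicate left out, at 519 without luminal replicate 1. Pathway genes called, 5 of 38, became 3 with the mean of all probe sets, 3 with the offset, 9 with no minimum fold and 2 to 6 with a replicate left out. The causes were not tested. Where a replicate was left out, its group had 1 array, and the spread came from the other group. With the replicate number as a block, 1208 genes and the same 2 Hedgehog genes were called. Same-numbered adult arrays deviated together only weakly (correlation 0.16 over 7822 genes), and no label pairs them. Signal near background limits Shh, Ihh, Ptch1 and Gli1 in both adult groups, and Gli2, Gli3 and Gas1 in luminal cells.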
